A study of Sus scrofa with 13 samples.

Results

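The genes described here are FMO1 and FMO2, 2 flavin-containing monooxygenases, followed here in the biceps femoris, a thigh muscle, of German Landrace pigs. They were taken by symbol, as 2 of 10283 named genes on the array, because their levels in these same animals differed between the groups. Each had 1 probe set, 15326817 for FMO1 and 15326808 for FMO2, and both were kept, since no filter on low values was used. Their values are therefore given as a description, with standard errors and without p-values, and tests are given for other genes.

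The study set dystrophin knockout (DMD KO) against wild-type (WT) muscle on whole-transcript expression arrays, with 1 array per animal. At 3 months of age 3 DMD KO and 3 WT animals were sampled, and at 2 days 4 DMD KO and 3 WT animals. The DMD KO pigs carried a deletion of exon 52 in DMD, which encodes dystrophin, the protein that links the fibre cytoskeleton to the surrounding matrix, and came from nuclear transfer with modified primary kidney cells. Muscle was taken from DMD KO animals right after they had died and from WT animals after euthanasia at matching ages, so genotype, cloning and manner of death cannot be told apart in any genotype difference below. Values are log2 levels read from the deposited table, so a difference of 1 is a doubling. Precision is limited by the small number of arrays.

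Flavin-containing monooxygenases are enzymes of the endoplasmic reticulum that hold FAD and use NADPH and molecular oxygen to add an oxygen atom to nitrogen or sulfur in their substrates. They are best known for the metabolism of drugs and other foreign compounds, and, for FMO1 in mice, of hypotaurine, the precursor of taurine. FMO1 is the enzyme of pig liver from which the family was first purified, and FMO2 is the main form in the lung of many mammals, although most people carry a truncated FMO2. In the RefSeq annotation of the Sscrofa11.1 assembly FMO2 and FMO1 stand next to each other in a cluster of FMO genes. FMO5, which lies on another chromosome, was measured with 1 probe set (15281158).

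Array medians ranged from 7.32 to 7.38 and 25th percentiles from 6.53 to 6.61 over the 13 arrays. The values carry no measure of background, so no fold is given where the lower group had a mean below those 25th percentiles. WT replicate 3 at 2 days stood apart, with a mean correlation of 0.918 across probe sets to the other arrays, against 0.943 to 0.964 for the rest. It also had the lowest 95th percentile, 9.21, and DMD KO replicate 3 at 3 months the highest, 9.83. The brighter of 2 DMD probe sets averaged 11.67 in DMD KO and 11.89 in WT at 3 months, and 12.18 in DMD KO and 12.07 in WT at 2 days. Where these probe sets lie relative to the deleted exon was not analysed here, so they do not check the labels. MYH1, a fast myosin, and ACTA1, the skeletal muscle actin, had group means from 11.5 to 12.4 in all 4 groups. MYH1 itself was lower in DMD KO at 2 days, with means of 11.47 in DMD KO and 12.38 in WT (adjusted p = 0.00615). MYH7, the slow myosin, was higher in DMD KO at that age, with means of 12.04 in DMD KO and 10.37 in WT (adjusted p = 0.00816).

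FMO1 was higher in DMD KO muscle at 2 days than in any other group. The 4 newborn DMD KO animals had log2 levels of 10.60, 10.87, 10.31 and 10.80, against 8.56, 8.26 and 6.84 in the 3 newborn WT animals. The lowest DMD KO value thus lay above the highest WT value by more than the range within DMD KO. The group means were 10.65 ± 0.25 in the 4 DMD KO animals and 7.89 ± 0.91 in the 3 WT animals (± SD), which is 6.78-fold higher in DMD KO (a log2 difference of 2.76 ± 0.43, SE). Only 4 of the 21893 probe sets differed by more in that direction. WT replicate 3, the array that stood apart, was the lowest of its group, and the difference without it was 2.24. A bulk sample cannot tell a change in the number of cells that hold a transcript from a change in the amount per cell.

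At 3 months the FMO1 values of the genotypes overlapped. They were 7.61, 7.65 and 9.23 in DMD KO, against 8.78, 8.13 and 8.72 in WT. DMD KO replicates 1 and 2 lay below the 3 WT animals and replicate 3 above them. The means were 8.16 ± 0.92 in DMD KO and 8.55 ± 0.36 in WT (SD, n = 3 each), a difference of -0.38 ± 0.46 (SE). Without DMD KO replicate 3, the array with the highest 95th percentile, the difference was -0.92, and without replicate 1 it was -0.10. After quantile normalization, which gives all arrays the same spread of values, replicate 3 still held the highest FMO1 value of the 6 arrays, 9.03.

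FMO2 crossed over, being higher in DMD KO at 2 days and higher in WT at 3 months. At 2 days its levels were 6.74, 7.74, 7.48 and 7.24 in DMD KO, against 6.33, 6.18 and 6.04 in WT. The groups did not overlap, with DMD KO replicate 1 the closest to the WT values. The means were 7.30 ± 0.43 in the 4 DMD KO animals and 6.18 ± 0.15 in the 3 WT animals (± SD), a difference of 1.12 ± 0.19 (SE). At 3 months the levels were 6.23, 5.97 and 6.04 in DMD KO, against 7.67, 7.67 and 7.30 in WT. Every DMD KO animal was below every WT animal, with means of 6.08 ± 0.14 in DMD KO and 7.55 ± 0.22 in WT (SD, n = 3 each) and a difference of -1.47 ± 0.21 (SE). Only 19 probe sets differed by more in that direction at 3 months. The lower means, 6.18 and 6.08, lie below the 25th percentiles of the arrays, where array values tend to understate differences, so no fold is given.

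**Figure D1:**
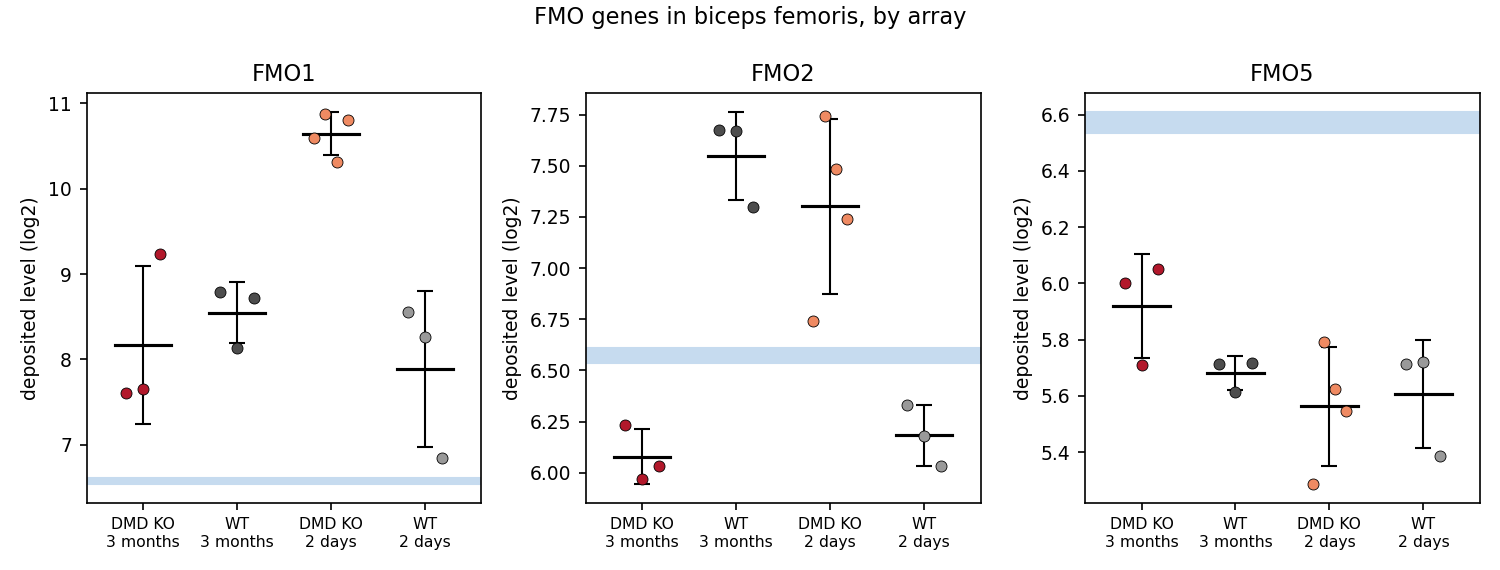
Deposited log2 levels of FMO1, FMO2 and FMO5 on each array, by group. Points are animals, horizontal lines group means, bars 1 SD, and the blue band spans the 25th percentiles of the 13 arrays; the vertical scales differ between genes. FMO1 stands out in DMD KO at 2 days (10.31 to 10.87), and FMO2 is above the band in WT at 3 months and DMD KO at 2 days and below it in the other groups.

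Both genes thus had separate DMD KO and WT values at 2 days (2 of 2), with DMD KO higher, which was also true of 14.1% of all probe sets. At 3 months FMO2 alone had separate values, with DMD KO lower, as had 10.1% of all probe sets. The pattern of FMO2 over both ages, with DMD KO above WT without overlap at 2 days and below it without overlap at 3 months, was shared by 211 probe sets (0.964%). These shares describe how common such patterns were, and since the genes were chosen from the same values, nothing is read from them.

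Set in order, the FMO1 groups ran from DMD KO at 2 days (mean 10.65) to WT at 3 months (8.55), DMD KO at 3 months (8.16) and WT at 2 days (7.89). The last 3 overlapped one another and did not differ beyond their spread. For FMO2 the order was WT at 3 months (7.55), DMD KO at 2 days (7.30), WT at 2 days (6.18) and DMD KO at 3 months (6.08). Here the upper pair overlapped, the lower pair overlapped, and the pairs were separated by the gap between 6.33 (WT replicate 1 at 2 days) and 6.74 (DMD KO replicate 1 at 2 days).

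Between the ages, both genes were lower at 3 months in DMD KO and FMO2 was higher at 3 months in WT. In DMD KO muscle FMO1 was 5.59-fold lower at 3 months than at 2 days (-2.48 ± 0.43, SE), and FMO2 was lower by a log2 difference of -1.22 ± 0.19 (SE). Neither gene had overlapping values between the ages in DMD KO (2 of 2, both lower at 3 months, as were 10.7% of all probe sets without overlap). In WT muscle FMO2 was higher at 3 months by 1.36 ± 0.21 (SE), again without overlap, as were 7.02% of probe sets. FMO1 differed in WT by 0.66 ± 0.46 (SE) with overlapping values, and by 0.14 without WT replicate 3 at 2 days, so most of that difference rests on that array. Taking the genotype difference at 2 days from the one at 3 months left -3.14 ± 0.63 (SE) for FMO1 and -2.59 ± 0.28 (SE) for FMO2. Of all probe sets 2 had a lower value than FMO1 in this contrast, and 7 had a lower value than FMO2. The comparisons within a genotype share arrays with those between genotypes, so these values restate the same 4 group means.

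The spread of FMO1 within its groups was uneven. Its SD was 0.91 in WT at 2 days and 0.92 in DMD KO at 3 months, against 0.25 in DMD KO at 2 days and 0.36 in WT at 3 months. In WT at 2 days the replicate with the lowest FMO1 was also the array with the lowest 95th percentile, and in DMD KO at 3 months the replicate with the highest FMO1 was the array with the highest. After quantile normalization FMO1 was at 6.87 on the first of these arrays and at 9.03 on the second. The genotype difference was then 2.66 at 2 days and -0.49 at 3 months. The part of these arrays in the FMO1 values was not tested. FMO2 did not share this spread. Its value on WT replicate 3 at 2 days, 6.04, was close to those of the other newborn WT animals, and leaving out any 1 array kept its difference between 0.97 and 1.31 at 2 days and between -1.59 and -1.40 at 3 months.

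FMO5, a further member of the family, was dim in every group and was not called between genotypes (limma, Benjamini-Hochberg adjusted over all probe sets). Its levels at 2 days were 5.29, 5.79, 5.63 and 5.55 in DMD KO, against 5.71, 5.72 and 5.38 in WT (difference -0.04, adjusted p = 0.855). At 3 months they were 5.9998, 5.71 and 6.05 in DMD KO, against 5.71, 5.61 and 5.72 in WT (difference 0.24, adjusted p = 0.389). All 13 values lay below the 25th percentiles of the arrays, so a difference in FMO5 may not have been detectable. It differed by 0.36 between 3 months and 2 days in DMD KO without passing (adjusted p = 0.142), a contrast in which 8.04% of all probe sets were called.

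**Figure D2:**
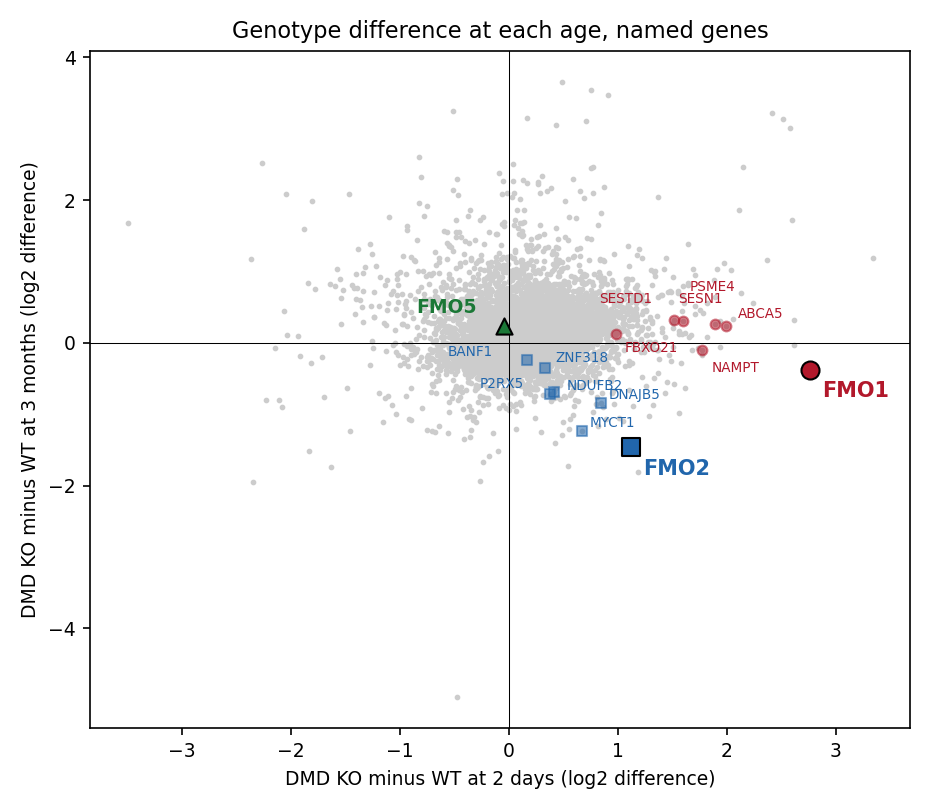
Log2 difference between DMD KO and WT at 2 days (horizontal) and at 3 months (vertical) for every named gene (grey), with FMO1, FMO2 and FMO5 marked by large symbols. Small red circles and blue squares are the 6 genes whose profiles over the arrays were most like those of FMO1 and FMO2. FMO1 lies far to the right near the zero line for 3 months, and FMO2 at the lower right.

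Of the genes beside the FMO cluster, 1 was called between genotypes. Of the 4 named protein-coding genes on either side in the annotation, 5 of 8 were measured. FMOD (fibromodulin), a collagen-binding proteoglycan, was the 1 called at 2 days and went the opposite way from FMO1, with mean levels of 7.40 in DMD KO and 9.24 in WT (-1.84 ± 0.32, SE, adjusted p = 0.00456). At 3 months FMOD had a difference of 0.84 that did not pass (adjusted p = 0.204). The test of the change in genotype difference with age, 3 months over 2 days, did pass for FMOD (2.68, adjusted p = 0.00578), as for 5.05% of all probe sets. BTG2, an antiproliferative gene next to the cluster, differed by 0.41 at 2 days and -0.18 at 3 months (adjusted p = 0.494 and 0.823). PRELP and OPTC, small leucine-rich proteoglycans, and GLB1L3 were not called at either age, with differences between -0.19 and 0.00. For comparison, 9.93% of all probe sets were called between genotypes at 2 days and 5.98% at 3 months.

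Likeness was measured as Pearson's r over the log2 values of the 13 arrays against each of the other 10282 named genes, as a ranking measure without a p-value, since the arrays fall into 4 groups. The 6 genes most like FMO1 were SESTD1 (r = 0.952), SESN1 (sestrin 1, a stress-induced brake on mTORC1, 0.947), NAMPT (the rate-limiting enzyme of NAD salvage, 0.947), ABCA5 (a lipid transporter, 0.945), PSME4 (a proteasome activator, 0.944) and FBXO21 (an F-box protein, 0.943). Spearman's rho for them was 0.874 to 0.912. Like FMO1, each had its highest group mean in DMD KO at 2 days, which ranking by r favours. ABCA5, for example, averaged 9.76 in DMD KO and 7.76 in WT at 2 days, and 7.81 in DMD KO and 7.58 in WT at 3 months. These genes also shared the low value of WT replicate 3 at 2 days, and without that array 2 of the 6 stayed among the 6 leading genes, with r still at 0.926 or above for all of them. For deviations from the group means, r with FMO1 ran from 0.815 to 0.938 over 13 arrays. On that measure 0 of these 6 genes stayed among the 6 leading ones. FMO1 lay furthest from its group mean on WT replicate 3 at 2 days and DMD KO replicate 3 at 3 months. This r was not computed without those arrays. MARCKS, a substrate of protein kinase C, was the gene most opposite to FMO1 (r = -0.946).

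The 6 genes most like FMO2 crossed over in the same direction, which follows from ranking them by r with it. None of them was among those most like FMO1. They were DNAJB5 (a heat shock co-chaperone, r = 0.883), P2RX5 (an ATP-gated ion channel, 0.854), MYCT1 (a gene of endothelial cells, 0.849), NDUFB2 (a subunit of respiratory complex I, 0.847), BANF1 (a chromatin-binding protein of the nuclear envelope, 0.844) and ZNF318 (0.842). MYCT1 averaged 9.01 in DMD KO and 8.34 in WT at 2 days, and 7.96 in DMD KO and 9.19 in WT at 3 months. DNAJB5 averaged 10.30 in DMD KO and 9.46 in WT at 2 days, and 9.17 in DMD KO and 10.01 in WT at 3 months. These 2 genes were called between genotypes by limma at both ages. P2RX5 and NDUFB2 were called at 3 months but not at 2 days (adjusted p = 0.147 and 0.0628 at 2 days). BANF1 (0.16 and -0.24, adjusted p = 0.205 and 0.136) and ZNF318 (adjusted p = 0.0567 and 0.0746) were called at neither age. For deviations from the group means, r with FMO2 ran from 0.032 for MYCT1 to 0.684 for DNAJB5, and 0 of these 6 genes stayed among the 6 leading ones on that measure. Without WT replicate 3 at 2 days 4 of these 6 genes stayed among the 6 leading ones. The most opposite genes were COL5A2 (-0.927), a chain of collagen V, BGN (biglycan, -0.904), a matrix proteoglycan, and MMP19 (-0.904), a matrix metalloproteinase. FMO2 itself ranked 1784 in likeness to FMO1, and FMO1 ranked 414 in likeness to FMO2 (r = 0.559, and 0.102 for deviations from the group means).

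**Figure D3:**
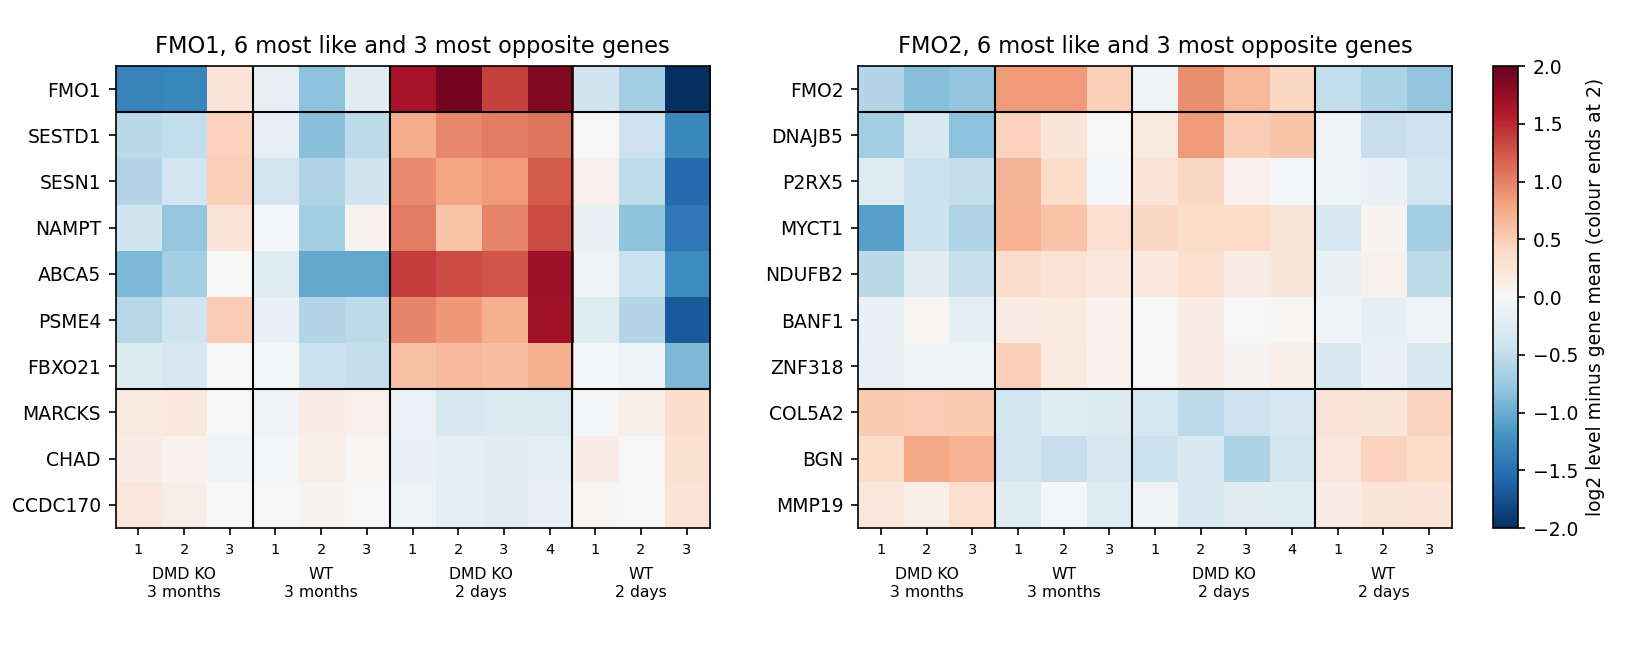
Log2 levels of FMO1 (left) and FMO2 (right), of the 6 genes most like each and of the 3 most opposite, with the mean of each gene over the 13 arrays taken away. Columns are arrays with their replicate number, grouped by genotype and age. The rows of FMO1 and the 6 genes most like it are red in DMD KO at 2 days and deepest blue on WT replicate 3 at 2 days. Those of FMO2 and the 6 genes most like it are red, some faintly, on most arrays of WT at 3 months and DMD KO at 2 days. The opposite genes are on the blue side in DMD KO at 2 days.

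Genes that supply the FMO reaction took no common direction. Of 4 measured genes for riboflavin uptake and FAD supply 0 were called by limma at either age, and 0 had an unadjusted p under 0.05 at 2 days, against 1 at 3 months. The largest difference was in RFK (riboflavin kinase, the first step from the vitamin to FAD), with 0.34 for the newborn animals and 0.44 for the older ones (adjusted p = 0.18 and 0.172). Of 13 NADPH-supply genes 2 rose and 2 fell at 2 days (30.8% called, against 9.93% of all probe sets), with a median of -0.12 against -0.02 over all probe sets. ALDH1L2, a mitochondrial folate dehydrogenase, fell by 1.24 (adjusted p = 0.000609) and PGD, of the pentose phosphate pathway, fell by 0.48 (adjusted p = 0.0196). The mitochondrial enzymes IDH2 (0.60, adjusted p = 0.0274) and ME3 (0.50, adjusted p = 0.0111) rose. The calls of IDH2 and PGD ended without DMD KO replicate 4 at 2 days (adjusted p = 0.0806 and 0.0555), and that of IDH2 also without DMD KO replicate 1 or WT replicate 3 at that age (0.06 and 0.111) and after quantile normalization (0.35, adjusted p = 0.11). At 3 months 0 of the 13 were called by limma, with 3 at an unadjusted p under 0.05 and ME2 at 0.78 (adjusted p = 0.122).

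Other flavin-dependent oxygenases and oxidases took no common direction. Of 9 measured, 1 rose and 2 fell at 2 days (33.3% called, against 9.93% of all probe sets), and 1 fell at 3 months (11.1%, against 5.98%). MICAL3, a monooxygenase that acts on the cytoskeleton, rose by 0.70 (adjusted p = 0.00725). SQLE, the monooxygenase of cholesterol synthesis, fell by 1.91 (adjusted p = 0.00361), with mean levels of 6.51 in DMD KO and 8.42 in WT. PCYOX1, the prenylcysteine oxidase, was lower in DMD KO at both ages, by -0.67 (adjusted p = 0.00983) and -0.71 (adjusted p = 0.0122). Its call at 3 months ended without DMD KO replicate 3 (adjusted p = 0.0559).

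Around taurine, the product that FMO1 makes in mice, 2 of 8 measured genes were called at 2 days (25%, against 9.93% of all probe sets) and 1 at 3 months (12.5%, against 5.98%). GADL1, a decarboxylase of acidic amino acids, was lower in DMD KO at both ages, with mean levels of 5.998 in DMD KO and 8.35 in WT at 2 days (-2.35 ± 0.30, SE, adjusted p = 0.00085) and of 7.90 in DMD KO and 9.85 in WT at 3 months (-1.95 ± 0.32, SE, adjusted p = 0.00316). CTH, the enzyme that makes cysteine from cystathionine, rose at 2 days by 1.33 (adjusted p = 0.000478), with a mean of 5.82 in WT. At 3 months CTH had a difference of -0.49 that did not pass (adjusted p = 0.108), and the change with age passed (-1.82, adjusted p = 0.000542). CDO1, the dioxygenase that starts taurine synthesis from cysteine, had differences of -0.89 at 2 days and -0.64 at 3 months, neither of which passed (adjusted p = 0.0619 and 0.267). The medians of the list were -0.07 and -0.40, against -0.02 and -0.05 over all probe sets. Of 7 genes for choline and methylamines, 0 were called by limma at 2 days (4 at an unadjusted p under 0.05) and 1 at 3 months (14.3%, against 5.98% of all probe sets), the choline transporter SLC44A1 (1.13, adjusted p = 0.00347).

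The broader machinery for foreign compounds was mostly not called. Of 9 genes of the microsomal P450 system 0 were called by limma at either age (3 at an unadjusted p under 0.05 at 2 days and 0 at 3 months), and the largest difference was in CYP39A1 (-0.79 at 2 days, adjusted p = 0.0753). Of 11 conjugating enzymes 0 were called by limma at 2 days (2 at an unadjusted p under 0.05) and 1 at 3 months (9.09%, against 5.98% of all probe sets), the glutathione transferase GSTM3 (0.95, adjusted p = 0.000432). Of 13 aldehyde and carbonyl enzymes 2 rose at 2 days (15.4%, against 9.93% of all probe sets) and 0 were called by limma at 3 months (3 at an unadjusted p under 0.05). ALDH6A1, an enzyme of valine breakdown, rose by 1.49 (adjusted p = 0.00116) and HSD11B1, which activates cortisone to cortisol, rose by 1.17 (adjusted p = 0.000831). The change in genotype difference with age passed for ALDH6A1 (-1.75, adjusted p = 0.00497), in the same direction as those of FMO1 and FMO2. Of 10 xenobiotic and nuclear receptors 1 was called at 2 days, a share near the 9.93% of all probe sets. It was PPARA, the fatty acid receptor (0.59, adjusted p = 0.0395), and 0 were called by limma at 3 months (1 at an unadjusted p under 0.05). Without any 1 of 7 arrays the call of PPARA ended (adjusted p up to 0.101).

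Of 21 measured antioxidant genes linked to NRF2, 5 rose and 0 fell at 3 months, which is 23.8% against 5.98% of all probe sets. The median of the list was 0.01. TXN (thioredoxin) rose by 1.75 (adjusted p = 0.00168), FTL, the ferritin light chain, by 0.97 (adjusted p = 0.00565), NFE2L2, which encodes NRF2, by 0.75 (adjusted p = 0.0141) and GSR, the glutathione reductase, by 0.67 (adjusted p = 0.044). The classical NRF2 target NQO1 differed by -0.44 (adjusted p = 0.13), at the low end of the list, which ran from -0.44 to 1.75. At 2 days 2 rose (9.52%, against 9.93% of all probe sets), FTL by 0.92 (adjusted p = 0.00554) and GSS, the glutathione synthetase, by 0.38 (adjusted p = 0.0393). The calls of GSR and GSS each ended without any 1 of 9 arrays (adjusted p up to 0.167 and 0.123), and that of NFE2L2 without DMD KO replicate 3 or WT replicate 2 at 3 months (adjusted p = 0.0713 and 0.0675).

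**Figure D4:**
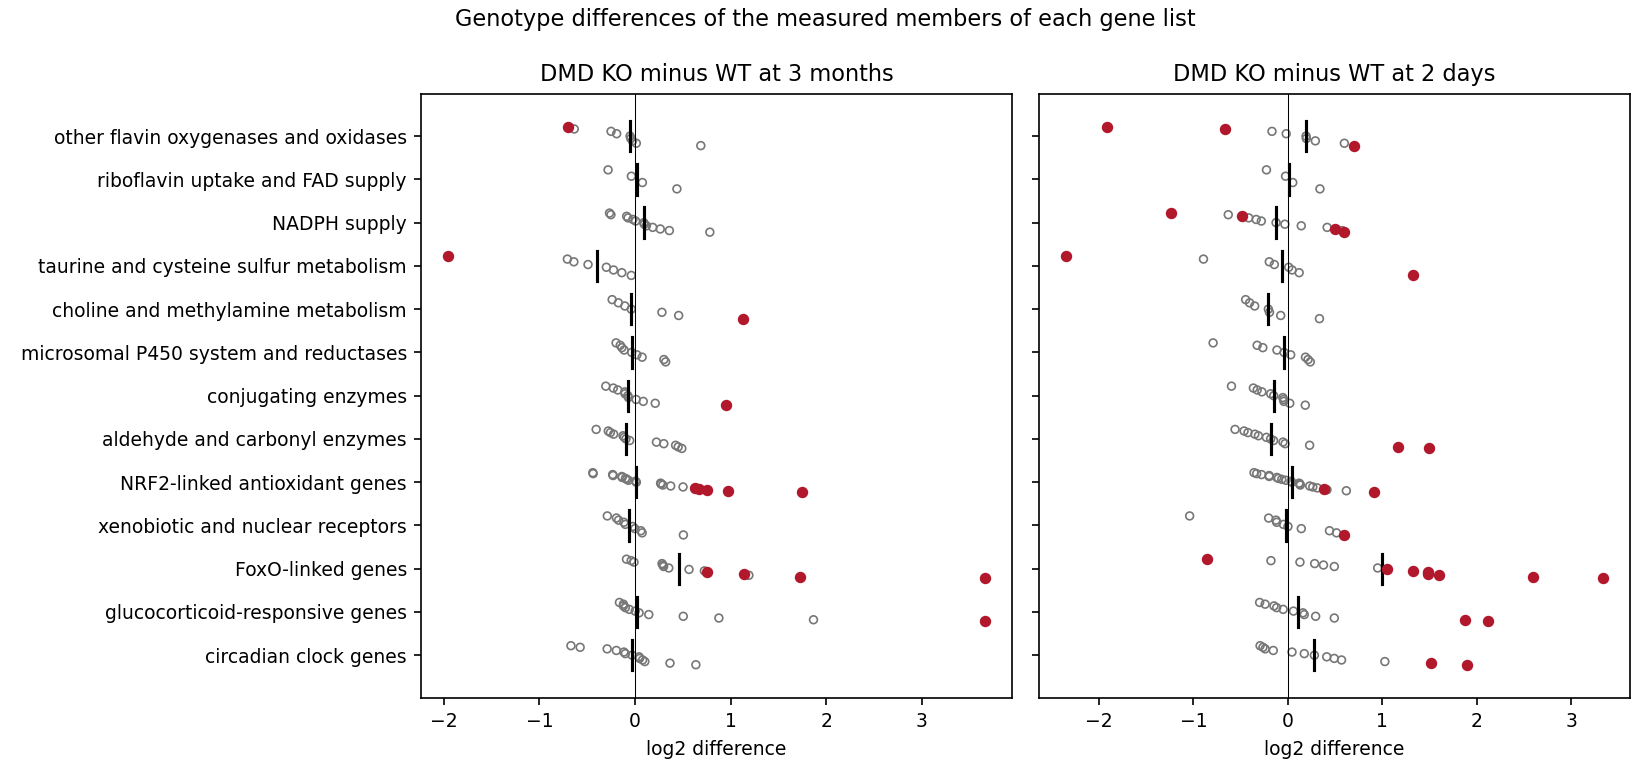
Log2 difference between DMD KO and WT at 3 months (left) and at 2 days (right) for the measured members of 13 gene lists. Filled red points passed at an adjusted p under 0.05 over all probe sets, open points did not, and black bars are list medians. The list of FoxO-linked genes has the highest median at both ages, 0.46 and 1.002.

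FoxO-linked genes, targets and partners of the transcription factors that drive muscle atrophy, included called genes at both ages. Some of these genes had been seen to rise in earlier results of these data, so the list is not independent evidence of its direction. At 2 days 7 of 14 measured genes rose and 1 fell (57.1% called, against 9.93% of all probe sets), with a median of 1.002. FBXO32 (atrogin-1), a ubiquitin ligase of atrophy, rose by 3.34 (adjusted p = 0.000562), GABARAPL1, of the autophagosome, by 2.60 (adjusted p = 0.000785), SESN1 by 1.60 (adjusted p = 0.0097) and FBXO30 by 1.49 (adjusted p = 0.0105). SESN3 was the 1 that fell, by 0.86 (adjusted p = 0.0476). At 3 months 4 rose (28.6%, against 5.98% of all probe sets), with a median of 0.46. They were PDK4, the kinase that shuts off pyruvate dehydrogenase (3.66, adjusted p = 0.00322), GABARAPL1 (1.72, adjusted p = 0.0115), SESN3 (1.14, adjusted p = 0.0232) and BNIP3L, a receptor for mitophagy (0.75, adjusted p = 0.026). The calls of GABARAPL1, SESN3 and BNIP3L at 3 months ended without DMD KO replicate 3 (adjusted p = 0.0508, 0.115 and 0.112), and without WT replicate 3 (0.0573, 0.0881 and 0.0966), those of SESN3 and BNIP3L also without WT replicate 2 (0.104 and 0.102), and that of BNIP3L without DMD KO replicate 1 or 2 (0.0509 and 0.0676). Like FMO1, FBXO32 had a genotype difference that was lower at 3 months than at 2 days (-2.15, adjusted p = 0.0489), while those of PDK4 (3.17, adjusted p = 0.048) and SESN3 (2.00, adjusted p = 0.00719) were higher.

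Among 12 glucocorticoid-responsive genes 2 rose at 2 days (16.7%, against 9.93% of all probe sets) and 1, PDK4, at 3 months (8.33%, against 5.98%). GLUL (glutamine synthetase) rose by 1.88 (adjusted p = 0.00171). FKBP5, a chaperone of the glucocorticoid receptor, rose by 2.12 (adjusted p = 0.049), a call that ended without any 1 of 10 arrays (adjusted p up to 0.213, without WT replicate 3 at 2 days). TSC22D3, PER1 and KLF9, common glucocorticoid targets, differed by 0.06, 0.17 and -0.05 at 2 days and were not called. Of 13 clock genes 2 rose at 2 days (15.4%, against 9.93%) and 0 were called by limma at 3 months (1 at an unadjusted p under 0.05). BHLHE41, a repressor of the clock, rose by 1.89 (adjusted p = 0.00171) and the nuclear receptor RORA by 1.51 (adjusted p = 0.00556), and for RORA the change in genotype difference with age passed (-2.09, adjusted p = 0.00958).

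Some markers of other cell types differed between the groups as well. For comparison with the counts below, 9.93% of all probe sets were called between genotypes at 2 days and 5.98% at 3 months. Of 10 measured fibroblast markers 5 fell at 2 days (50%) and 6 rose at 3 months (60%). Those that fell were led by COL1A1 (-2.06, adjusted p = 0.000179) and COL3A1 (-1.32, adjusted p = 3.99e-05), chains of the fibrillar collagens. Among those that rose were COL6A3 (1.40, adjusted p = 3e-05) and MFAP5 (1.13, adjusted p = 0.000668). The mean level of the list was 8.90 to 9.14 in DMD KO and 9.67 to 9.79 in WT at 2 days, and 9.87 to 9.95 in DMD KO and 9.14 to 9.39 in WT at 3 months. These markers were thus low in the groups where FMO2 was high, and high where it was low, and their part in the FMO2 values was not tested. Of 6 endothelial markers 1 rose at 2 days (16.7%), the receptor TEK (0.65, adjusted p = 0.0461). At 3 months 0 were called by limma (3 at an unadjusted p under 0.05). The list mean ran from 7.72 to 7.93 in DMD KO and from 7.91 to 8.18 in WT at 3 months. At 2 days it ran from 8.16 to 8.35 in DMD KO and from 7.95 to 8.28 in WT. Of 9 macrophage markers 0 were called by limma at 2 days (2 at an unadjusted p under 0.05). Their list mean at that age was nonetheless higher in DMD KO, at 7.212 to 7.329 against 7.013 to 7.204 in WT. The part of these markers in the FMO1 values was not tested. At 3 months 6 of 9 rose (66.7%), with LYZ (lysozyme) at 3.54 (adjusted p = 0.000102). The list mean was then 8.085 to 8.795 in DMD KO and 6.927 to 7.271 in WT.

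Of 7 tendon and cartilage markers 3 fell at 2 days (42.9%, against 9.93% of all probe sets). At 3 months 0 were called by limma (3 at an unadjusted p under 0.05). KERA (keratocan), a small leucine-rich proteoglycan like FMOD, fell by 3.50 (adjusted p = 0.00264), with FMOD and CHAD the others. The mean level of this list was 7.87 to 8.34 in DMD KO and 7.57 to 8.10 in WT at 3 months, and 6.99 to 7.17 in DMD KO and 7.79 to 8.76 in WT at 2 days. DMD KO at 2 days, the group with high FMO1, was thus the lowest for these markers, and their part in the FMO1 values was not tested. Of 9 adipocyte markers 2 fell at 2 days (22.2%, against 9.93%), the lipid enzymes SCD (-1.83, adjusted p = 0.0347) and DGAT2 (-0.86, adjusted p = 0.0157). Of the same 9, 0 were called by limma at 3 months (1 at an unadjusted p under 0.05). Of 4 satellite cell and myoblast markers 2 rose at 3 months (50%, against 5.98% of all probe sets), NCAM1 (1.37, adjusted p = 3e-05) and MET (1.10, adjusted p = 0.0238). At 2 days 0 of them were called by limma (1 at an unadjusted p under 0.05). Of 9 smooth muscle and pericyte markers 1 fell at 3 months (11.1%, against 5.98%), RGS5 (-0.74, adjusted p = 0.013). At 2 days 0 of these 9 were called by limma (2 at an unadjusted p under 0.05). Of 5 red blood cell markers 0 were called by limma at either age, and 0 had an unadjusted p under 0.05.

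Markers of liver and kidney, organs in which FMO1 is abundant in many mammals, were measured as well. The mean level of 5 measured hepatocyte markers lay between 6.41 and 6.70 on every array, near the 25th percentiles, and that of 5 kidney tubule markers between 6.82 and 7.17. AQP2, a water channel of the collecting duct, was the highest of the kidney list, with means of 8.02 in DMD KO and 8.26 in WT at 3 months, and 7.96 in DMD KO and 8.20 in WT at 2 days. In each list 1 gene of 5 rose at 2 days (20%, against 9.93% of all probe sets). They were ALB (albumin, 0.64, adjusted p = 0.00861) and LRP2 (megalin, 0.90, adjusted p = 0.00963). By limma 0 were called at 3 months (2 hepatocyte and 0 kidney markers at an unadjusted p under 0.05). The range of the hepatocyte mean was 6.47 to 6.70 in DMD KO and 6.46 to 6.59 in WT at 2 days. The part of these markers in the FMO1 values was not tested.

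**Figure D5:**
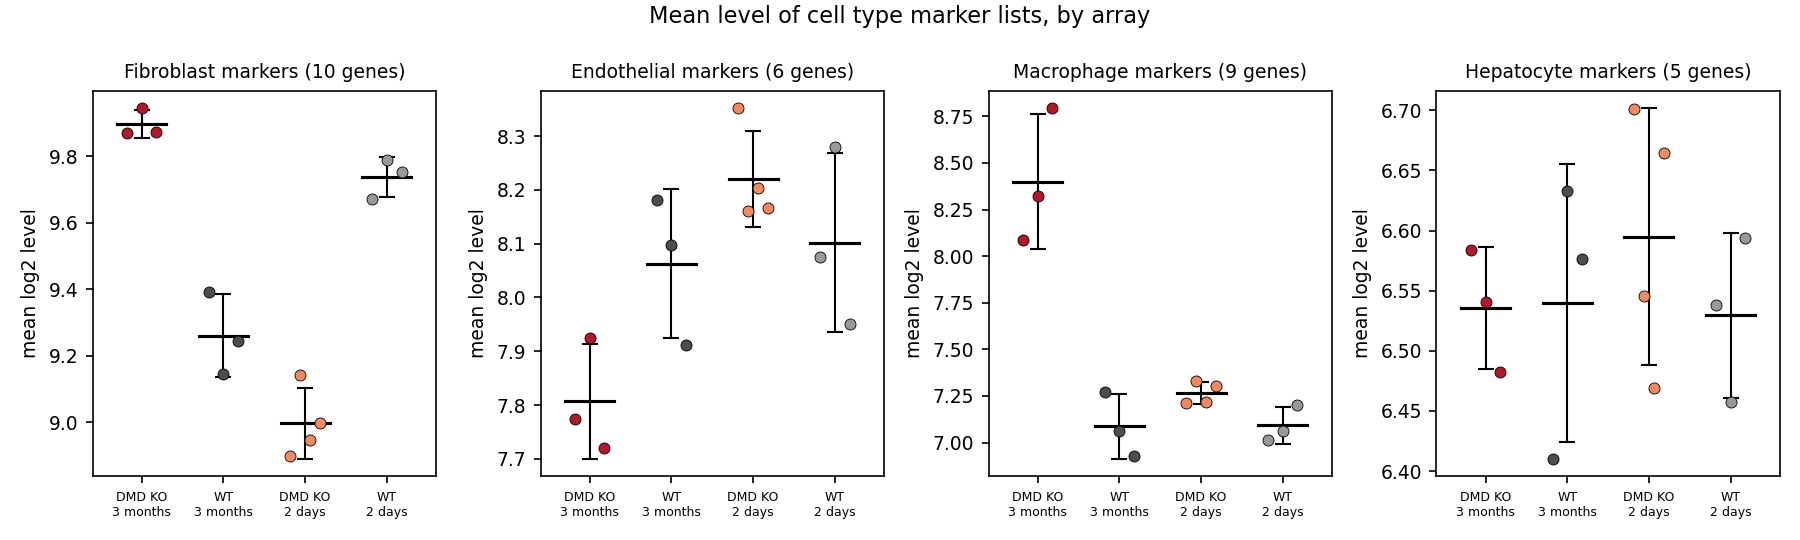
Mean log2 level of the measured fibroblast, endothelial, macrophage and hepatocyte markers on each array, by group. Points are animals, horizontal lines group means and bars 1 SD, and the vertical scales differ. Fibroblast markers are highest in DMD KO at 3 months (9.87 to 9.95) and lowest in DMD KO at 2 days (8.90 to 9.14), the reverse of the order of FMO2 within DMD KO.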

How the data were processed

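The measurements were whole-transcript array values of 13 pig muscle samples, 1 array per animal, which the labels call biological replicates. The deposited values are one log2 level per probe set, computed by the authors (the submitters' processing notes name Affymetrix Power Tools). The version, background correction, summary method and normalization are each not given in the sources used, and the log base was inferred from the range of the values. Close medians across arrays point to normalization between arrays before deposit, which removes any shift common to all genes.

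Probe sets were named through the platform annotation, with symbols updated from the RefSeq gene table of Sscrofa11.1. Of 21893 probe sets 11028 had 1 symbol, 418 several and 10447 none. A gene with several probe sets was represented by that with the highest mean. All 21893 probe sets entered 1 limma model (version 3.58.1, R 4.3.3) with a mean for each of the 4 groups, and p-values were adjusted by Benjamini-Hochberg over all of them. Called, rose and fell mean an adjusted p under 0.05. The model was tested on simulated data. The array files used here hold no signal over background.

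FMO1, FMO2 and the gene lists were chosen with earlier results of these data known. From each pathway list up to 4 called genes were named by size at each age, or up to 2 where none was called, along with every measured neighbour of the FMO cluster and the 6 most like and 3 most opposite genes. Named outside this rule, after their values were seen, were NQO1, CDO1, TSC22D3, PER1, KLF9, SESN3 at 2 days, the values of CTH and FBXO32 beyond their calls, and the single cell type markers. Alternatives were other normalizations, centring, array weights, moderation, a filter on low probe sets, fits on fewer groups, each array left out and a replicate block.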

Additional observations from a re-analysis of the deposited data

Results flagged for a closer look

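Of 67 named or listed genes screened in DMD KO at 2 days, the 1 group of 4 arrays, 4 had a single animal far from the other 3, where chance alone would single out about 5% of genes. RFK was lower on replicate 1, at a log2 level of 7.34, than on the others. FTL was higher on replicate 3 (10.09), FBXO30 on replicate 4 (11.37) and BANF1, one of the genes most like FMO2, on replicate 2 (9.40). A different animal stood out in each, and neither FMO1 nor FMO2 had such a value.

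The genotype difference at 3 months was below that at 2 days, by limma's adjusted p for the difference of differences, for CTH (-1.82, adjusted p = 0.000542), ALDH6A1 (-1.75, adjusted p = 0.00497), RORA (-2.09, adjusted p = 0.00958) and FBXO32 (-2.15, adjusted p = 0.0489). It was above that at 2 days for ALDH1L2 (1.60, adjusted p = 0.00107), GSTM3 (1.13, adjusted p = 0.00149), SLC44A1 (1.53, adjusted p = 0.00514), FMOD (2.68, adjusted p = 0.00578), SESN3 (2.00, adjusted p = 0.00719) and PDK4 (3.17, adjusted p = 0.048). Most of the genes screened had been named for a large genotype difference at a single age, which favours passing here. Of all probe sets 5.05% passed. For FMO2 every DMD KO animal was above every WT animal at 2 days and below every WT animal at 3 months (-2.59). This difference was not tested, since FMO2 was chosen for this pattern.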

How the results depend on the processing

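Each of the 190 alternative values of the FMO1 and FMO2 differences lay within the replicate SD of the value reported. Many could not differ from it. Leaving out an array of another group, fitting only the groups compared or changing the moderation keeps a difference of group means. The count is therefore no measure of stability, and the SD of FMO1 was wide in 2 groups (0.91 and 0.92). Over the arrays left out in turn, FMO1 differed by 2.24 to 3.10 at 2 days and -0.92 to -0.10 at 3 months, and FMO2 by 0.97 to 1.31 and -1.59 to -1.40. With array weights the FMO1 difference at 3 months was -0.72 and its age difference in WT 0.18. The number of called probe sets moved more. At 2 days, 2175 were called, against 1275 with only the groups compared, 735 with the replicate block and 1143 to 3210 without 1 array. At 3 months, 1310 were called, against 2310 with array weights, 829 with the block and 702 to 2036 without 1 array. For age in DMD KO, 1760 were called, against 3258 with array weights, 1087 with the block and 1180 to 2294 without 1 array. For age in WT, 633 were called, against 40 with only those groups, 1225 with array weights, 325 with the block and 368 to 757 without 1 array. For the difference of differences, 1105 were called, against 1892 with array weights, 580 with the block and 789 to 1265 without 1 array. The cause of these shifts was not tested. The labels do not state that replicate numbers pair the animals. Deviations of same-numbered arrays had correlations from -0.495 to 0.33 over 18 pairs, 4 of them over 0.1. Differently numbered arrays were not compared, so these values cannot decide whether the numbers pair animals. With the replicate block FMO1 differed by 2.71 at 2 days and -0.38 at 3 months, and FMO2 by 1.14 and -1.47. Of 35 genotype calls at a single age, for genes named by the rule above, 11 ended without at least 1 array. The calls of change with age, of SESN3 at 2 days and of cell type markers outside that rule were not checked in this way. Of the 6 genes most like FMO1, 3 remained by root mean square distance and 0 by deviations from the group means, and for FMO2 2 and 0. Using other probe sets of FMO1 or FMO2 was not run, since each has 1. The levels of FMO2 in its lower groups and of FMO5 throughout lie below the 25th percentiles of the arrays, which limits what can be said of differences there.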
